A study of Mus musculus with 4 samples.

Results

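The regulatory T cell core genes are the 10 genes Foxp3, Il2ra, Ctla4, Ikzf2, Ikzf4, Gpr83, Izumo1r, Nrp1, Capg and Swap70, taken by gene symbol from the annotation of an Illumina bead array. Of these, 9 had a probe, among 19057 genes named on the array, with 24 of its 45281 probes, and Ikzf4, which encodes the FOXP3 partner Eos, had none. RNA came from CD4+ T cells of spleen and lymph nodes, sorted as CD62L negative and CD44 positive, the surface phenotype of effector memory cells. This gate also keeps the effector fraction of regulatory T cells, so that the core genes were read here from a mixture of regulatory and conventional cells. Fewer regulatory T cells and less RNA per regulatory cell cannot be told apart in such bulk samples. The 2 dKO arrays came from C57BL/6 mice that lacked MEKK2 throughout and carried Lck-Cre with 1 null and 1 floxed MEKK3 allele, so that MEKK3 was deleted in cells that use the Lck promoter, and the 2 WT arrays came from C57BL/6 wild type mice. No age is given, and the labels do not state whether separate animals were used within a group, so that p-values measure only the spread between these arrays. The study's title places it in helper T cell differentiation under transforming growth factor beta (TGF-beta).

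Regulatory T cells restrain other T cells, and FOXP3, a forkhead transcription factor encoded on the X chromosome, specifies them. They take up interleukin 2 through CD25, the product of Il2ra, and strip costimulatory ligands from antigen-presenting cells with CTLA-4. TGF-beta can induce Foxp3 in peripheral CD4+ T cells, while Helios, the product of Ikzf2, and the semaphorin receptor neuropilin 1, the product of Nrp1, are widely used as marks of cells that arose in the thymus. GPR83 is a G protein-coupled receptor and IZUMO1R, also called folate receptor 4, is a surface protein, both enriched on mouse regulatory T cells. CAPG caps actin filaments, and SWAP-70 binds actin and takes part in Rac signalling.

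Comparing dKO with WT cells, 2 of the 9 core genes were lower in dKO without overlap between the groups, where 14% of all 8285 genes were, and 0 were higher, where 13.3% of all genes were. Foxp3, Il2ra, Ctla4, Ikzf2, Nrp1, Capg and Swap70 had overlapping values in dKO and WT cells at the probe of highest mean. Gpr83 was 2.39-fold lower and Izumo1r 1.96-fold lower in dKO cells, on both dKO arrays against both WT arrays, without passing the adjusted test. In RefSeq's table for the assembly GRCm38.p6, Gpr83 and Izumo1r are neighbours on chromosome 9, on opposite strands, with 0 annotated genes between them. Because they are neighbours and were the 2 lower core genes, their promoters are printed, beside that of Foxp3 as the gene that defines the cells. Each sequence runs from 250 bases before to 50 bases after the start used in the RefSeq promoter table (GRCm38.p6). For Gpr83 and Izumo1r that start lies inside the gene span that RefSeq's gene table gives, so it is not the outermost annotated start. The letters are given 5′ to 3′ on the strand of the gene, and capitals mark matches to the motifs described next.
Gpr83, chr9:14859960-14860259, plus strand: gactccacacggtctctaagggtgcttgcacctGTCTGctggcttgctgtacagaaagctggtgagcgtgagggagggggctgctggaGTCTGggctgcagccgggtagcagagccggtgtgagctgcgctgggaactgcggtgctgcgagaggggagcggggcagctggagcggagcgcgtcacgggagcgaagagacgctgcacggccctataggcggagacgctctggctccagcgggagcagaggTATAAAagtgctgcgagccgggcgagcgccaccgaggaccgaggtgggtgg
Izumo1r, chr9:14903718-14904017, minus strand: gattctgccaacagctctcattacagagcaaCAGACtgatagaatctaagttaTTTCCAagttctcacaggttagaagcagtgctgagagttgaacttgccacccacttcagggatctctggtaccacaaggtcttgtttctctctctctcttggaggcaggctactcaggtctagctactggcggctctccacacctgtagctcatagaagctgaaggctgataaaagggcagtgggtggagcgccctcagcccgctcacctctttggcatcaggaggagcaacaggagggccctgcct
Foxp3, chrX:7579426-7579725, plus strand, the first of its 2 listed starts: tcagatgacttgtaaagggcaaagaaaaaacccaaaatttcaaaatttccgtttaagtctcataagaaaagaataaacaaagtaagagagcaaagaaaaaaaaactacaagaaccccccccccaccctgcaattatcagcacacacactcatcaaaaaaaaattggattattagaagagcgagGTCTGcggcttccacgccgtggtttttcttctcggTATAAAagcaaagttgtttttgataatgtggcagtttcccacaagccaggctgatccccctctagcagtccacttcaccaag

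Each promoter was searched on both strands for TATAAA (the TATA box), GTAAACA (forkhead factors, FOXP3 among them), TGANTCA (AP-1), CAGAC (SMAD factors, which act downstream of TGF-beta) and TGGAAA (NFAT factors). The Gpr83 promoter held 2 matches to the SMAD motif and 1 to TATAAA. The Izumo1r promoter held 1 SMAD and 1 NFAT match and no TATAAA. The printed Foxp3 promoter held 1 SMAD match and 1 TATAAA, while the window at its other start held 1 NFAT match and neither of these. Among all 32851 promoters of this length, 49.6% held the SMAD motif, 13.6% TATAAA, 21.4% the NFAT motif, 7.81% the AP-1 motif and 3.65% the forkhead motif. The SMAD motif was found in all 3 printed windows, though not at the other Foxp3 start, and it is the most common of the motifs searched. Base composition differed, with 67% G or C at Gpr83, 52.3% at Izumo1r and 40.7% at Foxp3. A match describes these letters and is not a binding site.

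Values are given as deposited intensities, on a linear scale after the authors' background subtraction, and as log2 intensities floored at 16 and quantile normalized over the 4 arrays. Deposited intensities averaged 86.9 on dKO 1 and 119 on dKO 2, so that they compare directly only within a replicate number. Between 12763 and 13218 probes of an array exceeded the floor of 16. A probe was kept, and tested, where at least 1 array exceeded it. This left 14673 probes, among them 20 of the 24 member probes, all 20 above the floor on all 4 arrays. The other 4 (1 of Gpr83, 1 of Izumo1r and 2 of Swap70) were below it on all 4 arrays. The number of arrays limits the precision of every value. Of 10 T cell markers 8 had a probe above the floor, 1 higher and 1 lower in dKO without overlap, against 13.3% and 14% of all genes. Cd3g, of the T cell receptor complex, was abundant on all 4 arrays. It averaged 12.09 ± 0.58 over the dKO arrays and 12.04 ± 0.26 over the WT arrays (log2 intensity, SD over n = 2 arrays per group). Cd4 was dimmer, with 151 and 84.4 on the dKO arrays against 105 and 141 on the WT arrays, and its groups overlapped. The targeted Map3k3, which encodes MEKK3, read 204 and 246 on the dKO arrays and 311 and 387 on the WT arrays, and both probes of Map3k2, which encodes MEKK2, lay below the floor everywhere. Where these probes lie relative to the deleted parts is not known here, so they do not check the labels. Xist, transcribed from the inactive X chromosome of females, did not exceed the floor on either dKO array and was at least 26.1-fold lower there, while the Y-linked Eif2s3y and Kdm5d did not exceed it on either WT array. Sex and genotype therefore cannot be told apart in any comparison below, that of the X-linked Foxp3 included.

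**Figure D1:**
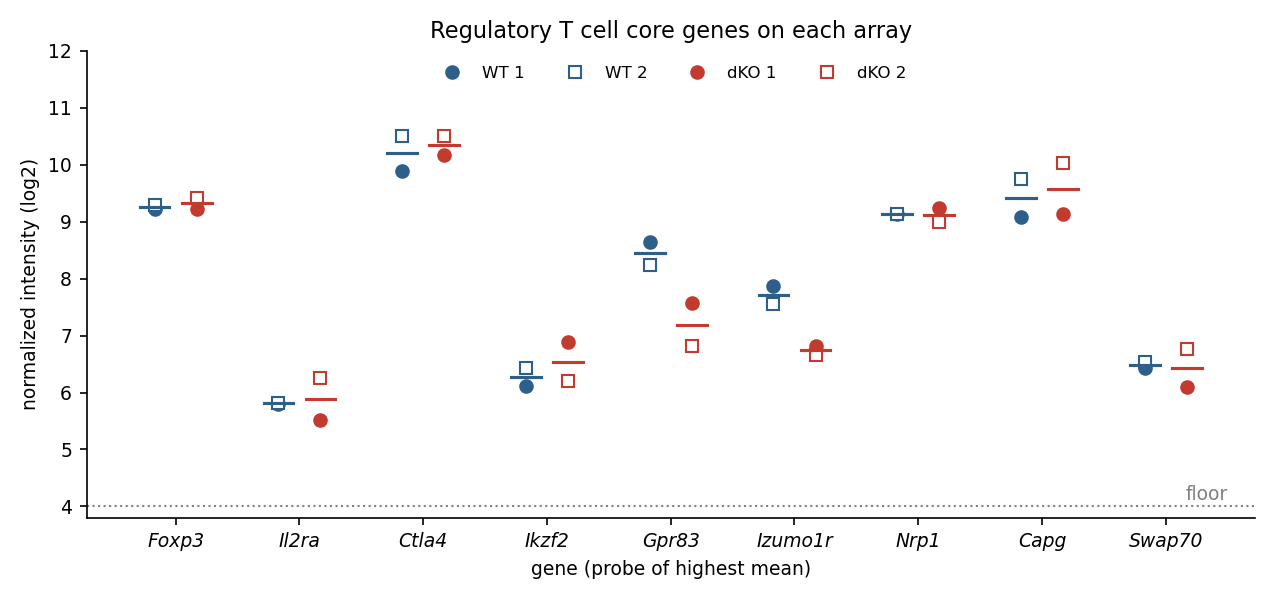
Log2 normalized intensity (vertical axis) of the 9 core genes with a probe, each by its probe of highest mean. Points are single arrays (filled circles replicate number 1, open squares number 2), bars are group means, and the dotted line is the floor. The dKO points lie below the WT points for Gpr83 (7.19 against 8.45 on average) and Izumo1r (6.74 against 7.72), and the groups overlap for the other 7 genes.

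Of the regulators of identity, Foxp3 was read by 4 probes and had close group means at 3 of them. Its probe of highest mean, ILMN_2635132, had deposited intensities of 513 and 806 on dKO 1 and dKO 2 and of 509 and 734 on WT 1 and WT 2. The dKO and WT arrays of the same replicate number were within 10% of each other, with dKO over WT ratios of 1.01 and 1.10 in numbers 1 and 2. Log2 normalized intensity averaged 9.33 ± 0.14 over the dKO arrays and 9.26 ± 0.05 over the WT arrays (SD over n = 2 arrays per group), 0.07 apart with a 95% interval from −0.38 to 0.52. That interval did not reach the log2 difference of Gpr83 (−1.26), whereas the interval of the fourth Foxp3 probe, given below, included it. Such intervals measure only the spread between these arrays, and a smaller change is not excluded. The probes ILMN_2917180 and ILMN_1251126 differed by 0.06 (interval −0.49 to 0.62) and 0.03 (interval −1.10 to 1.17). The fourth probe, ILMN_1225330, read lower in dKO within both numbers, with ratios of 0.755 and 0.843. After normalization dKO 1 at 6.73 (log2) lay above WT 2 at 6.48, so that the groups overlapped. The log2 difference of this probe was −0.33 with an interval from −1.32 to 0.67.

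Ikzf2 was read by 1 probe, with 106 and 81.1 on the dKO arrays and 62.4 and 95.6 on the WT arrays. The direction turned between the numbers: dKO was 1.70-fold WT in number 1 and 0.849-fold in number 2. The log2 difference over both was 0.27 with an interval from −0.72 to 1.26, too wide to tell a rise of Helios message from a fall. Its relatives of the Ikaros zinc finger family behaved alike in that no group separated. Ikzf1, which encodes Ikaros itself, differed by −0.01, Ikzf3 (Aiolos) by −0.35 and Ikzf5 (Pegasus) by 0.15, and all 3 overlapped between the groups.

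The receptor genes of the core, Il2ra and Ctla4, overlapped as well. Il2ra at ILMN_1233474 read 41.9 and 84.6 on the dKO arrays against 50.6 and 62.2 on the WT arrays, so that dKO 1 was the lowest and dKO 2 the highest of the 4. The log2 difference was 0.07, made of −0.28 in number 1 and 0.43 in number 2. The other Il2ra probe, ILMN_1234973, was dim, with 19.6 and 39.8 on the dKO arrays against 34.9 and 44.7 on the WT arrays. It separated the groups after normalization, with a log2 difference of −0.52 (interval −1.49 to 0.46), and so the probes of Il2ra disagreed in sign. That difference rests on single arrays and on the floor: it was −0.11 without dKO 1, −0.93 without dKO 2 and −0.20 at a floor of 32. Ctla4 read 968 and 1727 on dKO 1 and dKO 2 and 807 and 1727 on WT 1 and WT 2. The values of number 2 were identical, as they can be when arrays are normalized to 1 distribution and a probe holds the same rank on each. The log2 difference of Ctla4 was 0.14 with an interval from −0.59 to 0.87.

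Gpr83 was the core gene furthest apart. Its kept probe, ILMN_2707941, read 168 and 125 on dKO 1 and dKO 2, while WT 1 and WT 2 read 346 and 348. The deposited dKO over WT ratios were 0.487 in number 1 and 0.359 in number 2. After normalization WT 1 and WT 2 were at 8.65 and 8.24 (log2), and dKO 1 and dKO 2 lay below both, at 7.57 and 6.81. Log2 intensity averaged 7.19 ± 0.54 over the dKO arrays and 8.45 ± 0.29 over the WT arrays (SD over n = 2 arrays per group), which gives a difference of −1.26 ± 0.34 (SE of the fit) with a 95% interval from −2.17 to −0.35. By limma the unadjusted p was 0.0172 and the p adjusted over all 14673 probes 0.9999. With the replicate number as a block the adjusted p by limma was 0.0848. In absolute size this difference exceeded that of 99% of all kept probes.

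Izumo1r was lower in dKO at each of its 3 kept probes. The probe of highest mean, ILMN_2659388, read 101 and 113 on the dKO arrays against 207 and 213 on the WT arrays. The ratios were 0.489 in number 1 and 0.531 in number 2. After normalization the dKO arrays were at 6.82 and 6.67 (log2) and the WT arrays at 7.88 and 7.56. Log2 intensity averaged 6.74 ± 0.11 over the dKO arrays and 7.72 ± 0.23 over the WT arrays (SD over n = 2 arrays per group), which gives a difference of −0.97 ± 0.25 (SE of the fit) with an interval from −1.63 to −0.32. Its adjusted p by limma was 0.9999, from an unadjusted p of 0.0131, and 0.154 with the replicate number as a block. The probe ILMN_1241648 gave 87.1 and 101 on the dKO arrays against 153 and 173 on the WT arrays, a log2 difference of −0.79. The probe ILMN_2752836, which the annotation assigns to another transcript record, gave 134 and 71.2 against 147 and 163. There dKO 1 lay close to WT 1, the log2 values of the groups overlapped, and the difference of −0.66 shrank to −0.05 without dKO 2. Probes of 1 gene share its transcripts and are not independent of each other.

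**Figure D2:**
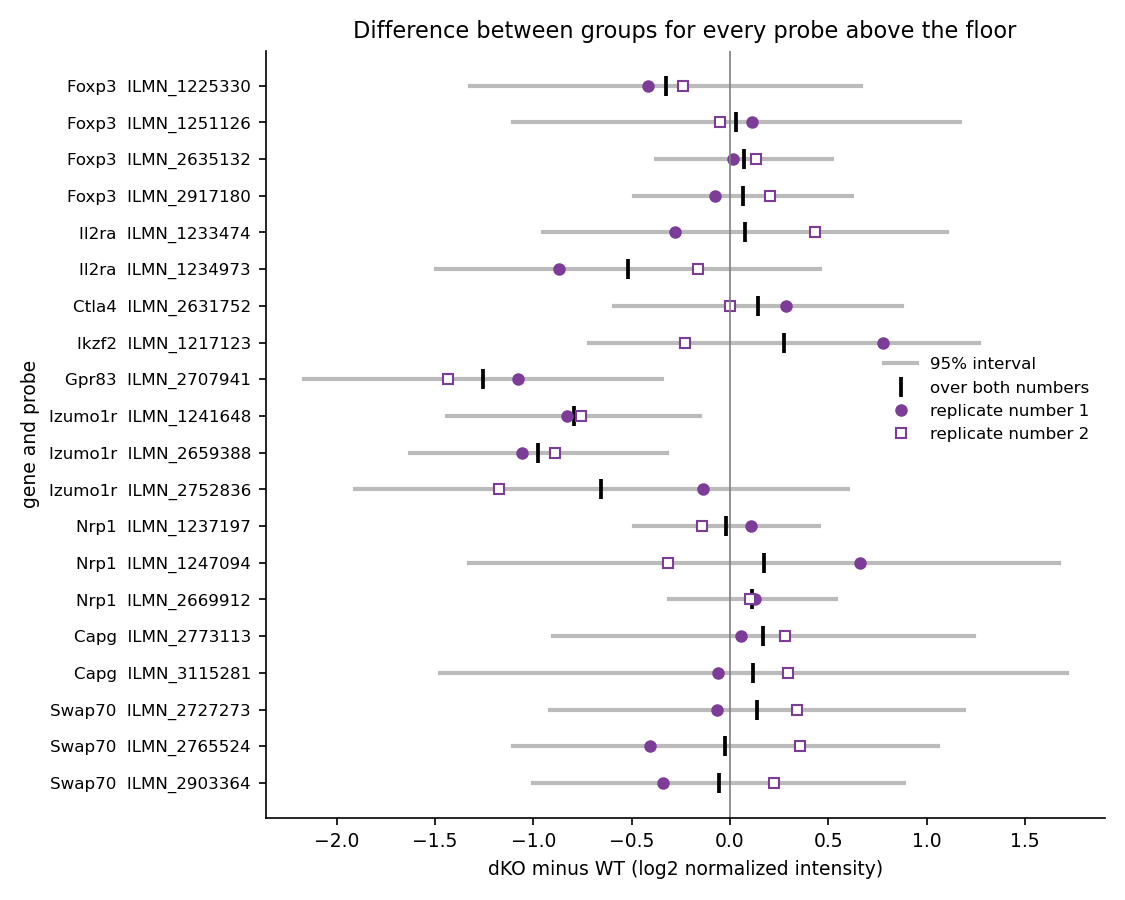
Difference between dKO and WT in log2 normalized intensity (horizontal axis) for each of the 20 member probes above the floor (vertical axis). Black ticks give the difference over both replicate numbers, grey bars its 95% interval from limma, filled circles number 1 and open squares number 2. The intervals of Gpr83 and of 2 Izumo1r probes lie below 0, and all the others include 0.

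The other genes around the pair that could be read had close group means. This was looked up after the values of Gpr83 and Izumo1r had been seen, for the 3 nearest protein-coding genes on each side in the same RefSeq table. On the side of Gpr83, Mre11a, a DNA repair nuclease gene, and Ankrd49 differed by −0.07 and 0.02, and on the side of Izumo1r the channel gene Panx1 differed by 0.11, all 3 with overlap between the groups. The probes of the remaining 3 neighbours, 1700012B09Rik, Hephl1 and Vstm5, were below the floor on all 4 arrays.

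Nrp1, Capg and Swap70, the surface and cytoskeletal members, had close group means, though the intervals of Capg and Swap70 were wide. Nrp1 at ILMN_1237197 read 517 and 595 on the dKO arrays against 480 and 657 on the WT arrays, a log2 difference of −0.02 with an interval from −0.49 to 0.45. Its second bright probe, ILMN_2669912, read 426 and 570 against 392 and 530, and its normalized values were 0.13 and 0.10 higher in dKO within numbers 1 and 2. That small difference of 0.11 did separate the groups, and it was the only one of the 20 probes to do so in the upward direction. The third, ILMN_1247094, turned sign between the numbers. Capg at ILMN_2773113 read 480 and 1233 on the dKO arrays and 462 and 1009 on the WT arrays. After normalization both arrays of number 2 still lay above both of number 1, at 10.03 and 9.75 against 9.13 and 9.07 (log2). The group difference of 0.17 (interval −0.90 to 1.24) was small beside that step. Swap70 at ILMN_2903364 read 61.6 and 121 on the dKO arrays against 77.6 and 104 on the WT arrays, with a log2 difference of −0.06, and its other kept probes differed by 0.14 and −0.02. In all 3 Swap70 probes dKO 1 was the lowest array and dKO 2 the highest.

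Markers of other cells that use these genes were read beside them. Capg and Nrp1 are also expressed in myeloid and dendritic cells. Of 16 markers of those cells, 11 had a probe above the floor. Of these, 4 were higher in dKO without overlap and 2 lower, against 13.3% and 14% of all genes. The summed normalized intensity of the 11 was 567 and 1067 on the dKO arrays and 851 and 757 on the WT arrays. The 4 higher ones were the macrophage genes Adgre1, C1qb, C1qc and Csf1r, which differed by 1.73, 1.58, 1.31 and 1.00. The 2 lower ones were the plasmacytoid dendritic cell gene Siglech, at −1.75, and Clec9a. Clec9a did not exceed the floor on either dKO array and was at least 1.58-fold lower. The markers Itgam, Itgax, Xcr1 and Flt3 were below the floor on all 4 arrays. Of 8 B cell markers, 3 had a probe above the floor, all with overlap between the groups, and Ms4a1 and Pax5 were below it. Their sums were 85.5 and 326 on the dKO arrays and 167 and 155 on the WT arrays. Of the 3, Cd79b read 27.9 and 263 on dKO 1 and dKO 2 against 90.5 and 91.0 on the WT arrays. The myeloid and the B cell sum were highest on dKO 2. By the probe of highest mean, Capg, Swap70, Il2ra and Foxp3 were highest on that array too, while Nrp1 was lowest there. The other Il2ra probe was highest on WT 2. The part of these cells in the values of Capg, Swap70 and Nrp1 was not tested.

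Beside Gpr83 and Izumo1r, the marker list of CD8 and NK lymphocytes read lower in dKO. Of 13 such markers 9 were kept and 8 were lower without overlap, with sums of 2639 and 2991 on the dKO arrays and 5475 and 4947 on the WT arrays. The shares over all genes are those given above, 14% lower and 13.3% higher. Ctsw, Cd160 and Nkg7, genes of cytotoxic lymphocytes, differed by −1.12, −1.70 and −0.61. Cd8b1, a chain of the CD8 co-receptor, was the 1 kept marker with overlap: it read 691 and 512 on the dKO arrays against 736 and 602 on the WT arrays, a log2 difference of −0.16, and the probe of the other chain, Cd8a, was below the floor. With the replicate block limma called 1 gene of the list, the chemokine gene Xcl1, at −2.60 (adjusted p = 0.00516). The naive cell markers Ccr7 and Lef1, the 2 of 4 that could be read, differed by −0.79 and −0.45. The 3 globin genes above the floor, of 6 erythroid markers, were higher in dKO without overlap, Hba-a1 by 4.37, and limma called all 3 with the replicate block. The part of these cells in the lower Gpr83 and Izumo1r was not tested.

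Over the core genes together, limma called 0 of 20 member probes, as it called 0% of all 14673 kept probes, with a smallest adjusted p of 0.184 over all of them. At an unadjusted p under 0.05 there were 3 member probes, 1 of Gpr83 and 2 of Izumo1r, against 3.27% of all kept probes. In the fit blocked on the replicate number it again called 0 member probes, against 0.232% of all kept probes, and 3 passed at an unadjusted p under 0.05, against 11.8%. Without overlap between the groups, 4 of 20 member probes were lower in dKO, against 14.2% of all kept probes, and 1 was higher, against 11.9%, which for 20 probes is near the background. Lower by at least 1.5-fold within both replicate numbers were 3 member probes, against 1.55% of all kept probes, and none was higher by that much, against 1.66%. Higher in dKO within both numbers were 3 member probes, against 25.7% of all kept probes, and lower within both were 6, against 27.8%, while 10 changed sign between the numbers. Under 1.2-fold apart were 13 of the 20, or 65%, against 63.9% of all kept probes. With 2 arrays in a group, an exact permutation test of a single gene cannot give a two-sided p below 0.333.

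**Figure D3:**
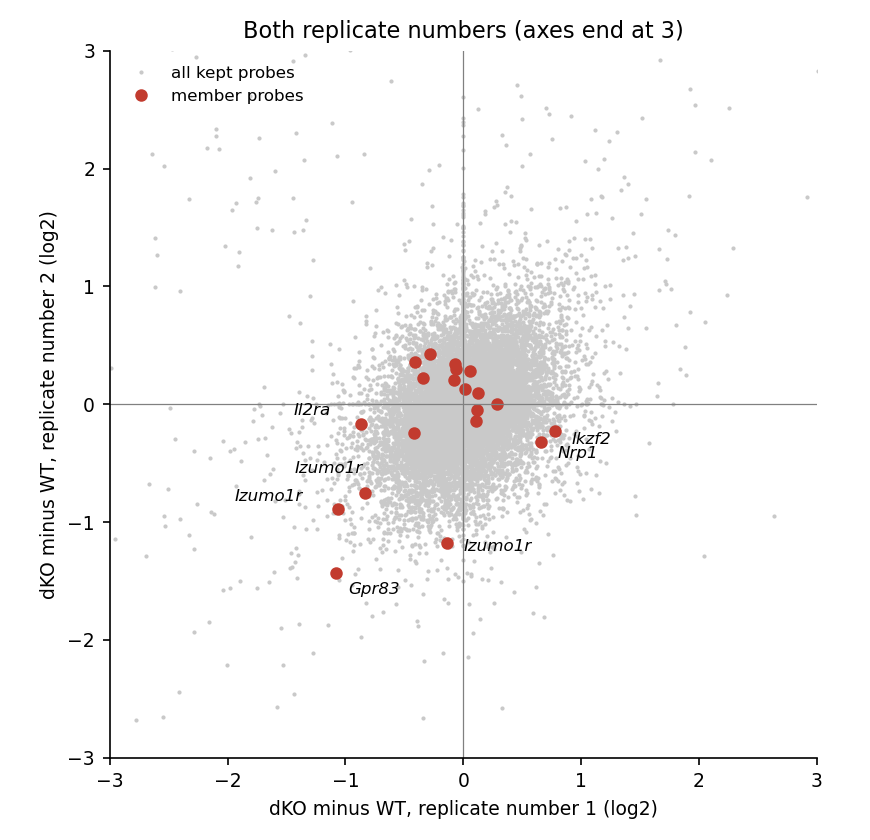
Difference between dKO and WT in log2 normalized intensity within replicate number 1 (horizontal axis) and number 2 (vertical axis), for all 14673 kept probes (grey) and the 20 member probes (red). Gpr83 and 2 Izumo1r probes sit in the lower left, below 0 on both axes, and most other member probes lie within the cloud near 0. Not drawn are 54 probes beyond 3 on either axis.

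Taken by the probe of highest mean, the 9 core genes had a median log2 difference of 0.07, against 0.01 over all 8285 genes. Within the replicate numbers it was 0.01 (number 1) and 0.00 (number 2), and it turned to −0.28 without dKO 2 and to −0.11 without WT 1. By limma's unadjusted p 2 of the 9 were under 0.05, against 3.34% of all genes. Relative to Foxp3 on the same array, the change of Gpr83 was −1.09 in number 1 and −1.57 in number 2. That of Izumo1r was −1.07 and −1.02. Both separated the groups, as they did before Foxp3 was subtracted, and Foxp3 itself differed by only 0.07. Any separation of 2 against 2 arrays gives an exact two-sided permutation p of 0.333, so that this p adds nothing. Relative to Foxp3, the other 6 genes overlapped between the groups.

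The replicate numbers separated 5 of the 9 core genes and the groups 2, much as among all genes, where the numbers separated 52.8%. The 5 genes Foxp3, Il2ra, Ctla4, Capg and Swap70 were higher on both arrays of number 2 than on both of number 1, after quantile normalization. The step was 0.79 for Capg, 0.47 for Ctla4, 0.40 for Swap70, 0.39 for Il2ra and 0.13 for Foxp3 (log2). In 6 of the 9 genes it was larger than the difference between the groups, as in 62.9% of all genes. Gpr83, Izumo1r and Ikzf2 were the 3 exceptions, with larger differences between the groups than between the numbers. The authors had normalized the arrays of each number together, as their sorted values show, which differed by at most 0.0846 within number 1 and 0.0793 within number 2.

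**Figure D4:**
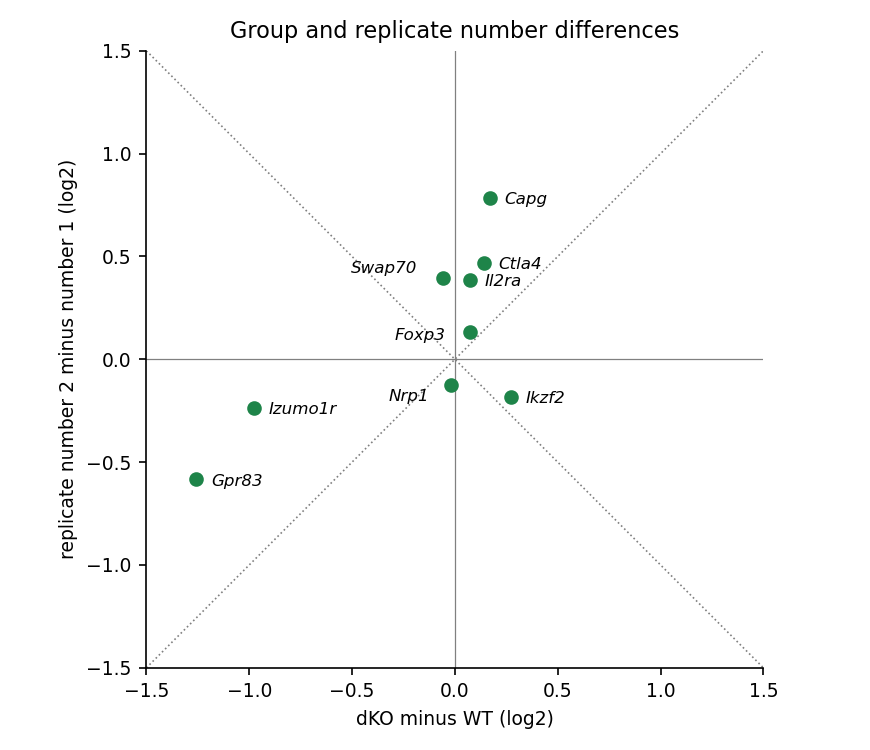
Log2 difference between dKO and WT (horizontal axis) against the log2 difference between replicate numbers 2 and 1 (vertical axis) for the 9 core genes, each a point. On the dotted diagonals both differences are equal in size. Capg, Ctla4, Swap70, Il2ra, Foxp3 and Nrp1 lie closer to the vertical axis, and Gpr83, Izumo1r and Ikzf2 closer to the horizontal one.

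Other genes of regulatory T cells, 36 in a list that leaves the core out, were mostly not separated. Of 29 with a kept probe, 5 were higher in dKO without overlap and 2 lower, against 13.3% and 14% of all genes, around a median of −0.01 (log2), and limma called none. At an unadjusted p under 0.05 by limma with the replicate block 9 of the 29 passed, 7 higher and 2 lower, against 12.4% of all genes in either direction. The costimulatory receptor genes Tnfrsf18 (GITR) and Tnfrsf4 (OX40) differed by −0.01 and −0.03, and Icos by −0.19. The suppressive cytokine gene Il10 differed by −0.45, with overlap. The 2 genes on the lower side without overlap were the inhibitory receptor gene Tigit at −0.39 and Tgfb1, which encodes TGF-beta 1, at −0.08, both named after their values were seen. On the higher side were Havcr2 (the inhibitory receptor TIM-3) at 1.09, the calcium-binding protein genes S100a4 at 0.98 and S100a6 at 0.49, Socs2, a feedback inhibitor of cytokine signalling, at 0.89, and the chemokine receptor gene Ccr8 at 0.31, the last also named after its value was seen. Itgae, which encodes the integrin CD103 and is known as a TGF-beta induced gene, differed by 0.52, and the chemokine receptor gene Cxcr3 by −0.39, both with overlap.

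Of 33 partners and regulators of FOXP3, 21 had a kept probe, of which 3 were higher and 4 lower without overlap, near the 13.3% and 14% of all genes, with a median of −0.04. Foxp1, a forkhead relative of FOXP3, differed by −0.85 and Hdac7, a histone deacetylase, by −0.77. Both differences held their sign within the numbers, at −0.73 and −0.96 for Foxp1 and −0.58 and −0.95 for Hdac7. Kat5, the acetyltransferase TIP60, differed by −0.39, Runx1 by 0.40 and Usp7, a deubiquitinase of FOXP3, by 0.25. Foxo3 did not exceed the floor on either dKO array and was at least 1.13-fold lower.

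Along the interleukin 2 pathway that CD25 feeds, Cish, a target of STAT5, averaged 10.50 ± 0.27 over the dKO arrays and 9.75 ± 0.20 over the WT arrays (log2 intensity, SD over n = 2 arrays per group), 0.75 higher without overlap. Of 14 genes 12 were kept, 2 higher and 3 lower without overlap, against 13.3% and 14% of all genes, with a median of 0.00. Il2rb, the beta chain of the receptor, differed by −0.71 with overlap, and Jak3 by −0.29 and Il15ra by −0.22 without. Socs3 differed by 0.67 without overlap, made of 1.32 in number 1 and 0.02 in number 2. Socs1 exceeded the floor only on dKO 1, at 17.8, and its groups overlapped. The gamma chain gene Il2rg had no probe. Limma called none of these genes, with or without the block.

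Genes around CTLA-4 and CD28 had a median of 0.02 over 7 of 9 genes. Lrba, which protects CTLA-4 from degradation, was the 1 gene without overlap, 0.24 higher, where 13.3% of all genes were higher without overlap. Cd28 differed by −0.11, Cd86 by −0.43, Cd80 by 0.02, Cd274 by 0.05 and Ap2m1, of the clathrin adaptor that takes CTLA-4 from the surface, by 0.46. Among relatives of the remaining members, 4 of 11 were kept, with a median of 0.02. Def6, the closest relative of Swap70, differed by −0.42 without overlap, Sema4a, which encodes a ligand of neuropilin 1, differed by 0.24 and the actin-severing gelsolin gene Gsn by 0.00, and the folate receptor genes Folr1 and Folr2 were below the floor. Of 10 genes known to be lower in regulatory than in conventional T cells, 7 were kept, with a median of −0.07. Igfbp4 was lower without overlap, at −1.20. The interleukin 7 receptor gene Il7r differed by 0.17, Satb1 by −0.19, Id3 by −0.25 and Il2 by 0.20. Dapl1 exceeded the floor only on WT 2, at 18.6, and its groups overlapped. Across these 7 lists limma called 0 genes, with or without the replicate block.

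**Figure D5:**
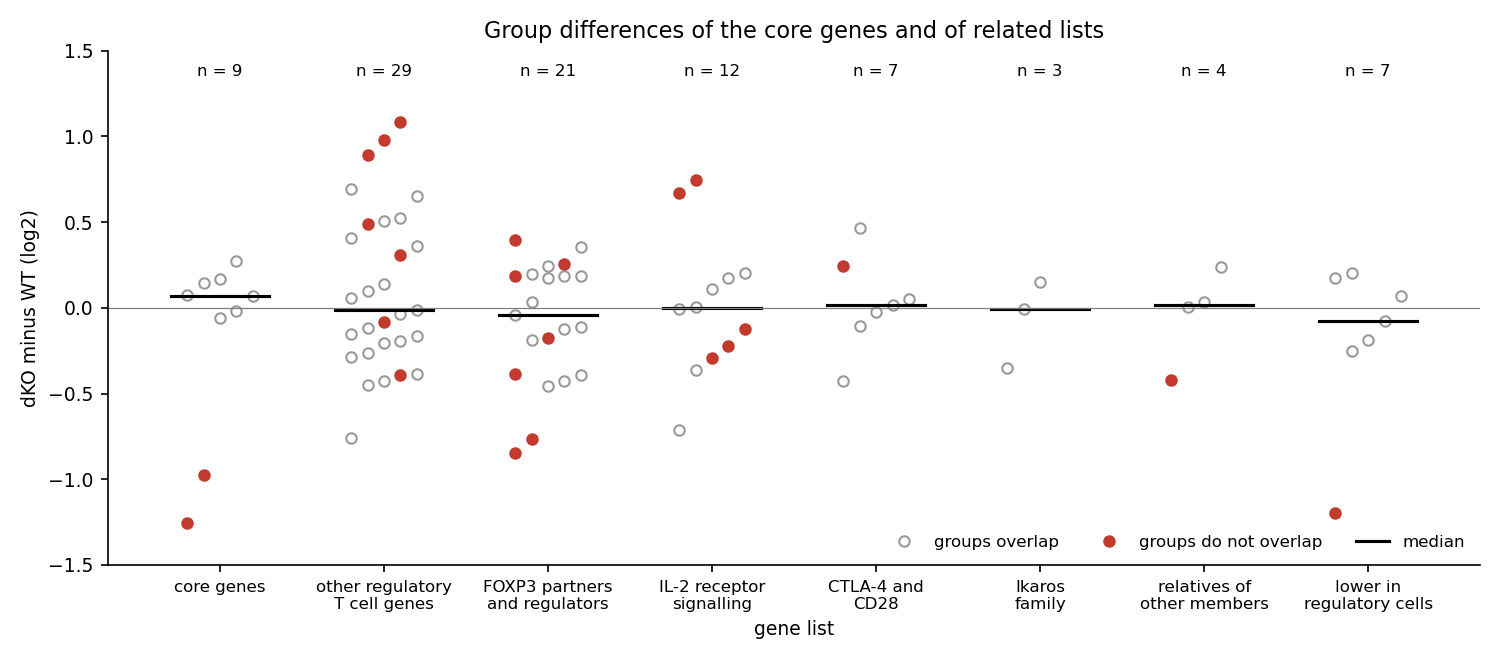
Log2 difference between dKO and WT (vertical axis) of the core genes and of 7 related gene lists (horizontal axis), each gene by its probe of highest mean. Filled red points are genes whose groups do not overlap, open points overlap, bars are medians and n is the number of genes with a kept probe. All medians lie between −0.07 and 0.07, and Gpr83 at −1.26 is the lowest point.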

How the data were processed

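Biotinylated cRNA of 4 samples was read on Illumina arrays, per the labels' protocols. The deposited values are intensities on a linear scale, normalized by the authors in a way not given in the sources used here. A second table was not used, because the names of its 8 value columns match no sample. Groups and replicate numbers came from the sample titles.

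A floor of 16 was set, then log2 was taken and the arrays were quantile normalized. All kept probes were fitted with limma 3.58.1 in R 4.3.3 (lmFit, eBayes with trend, genotype alone, 2 residual degrees of freedom, 1 with the replicate block), with two-sided p-values adjusted by Benjamini-Hochberg over 14673 probes and a threshold of 0.05. The code of the fit was also run on simulated data with planted differences, and no result given here rests on that run. A gene is its kept probe of highest mean. The platform annotation named 1 gene for 34885 probes and several for 18, and 10378 probes are unnamed here. RefSeq tables (GRCm38.p6) gave neighbours and promoters, the latter for 8 of 10 members. Members and lists were chosen with earlier results of these data known. All members are named. Of each list up to 6 genes of smallest p and a few preset genes are named, and of marker lists up to 4 of highest mean and the sex-linked genes. Xcr1, Itgam and other markers named as below the floor, Cd8a, Folr1 and Folr2 among them, were added after their values were seen. So were Cd4, Adgre1, Csf1r, Clec9a, Xcl1, Tigit, Tgfb1, Ccr8 and the neighbouring genes.

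The deviations of same-numbered arrays from their group means correlated at 0.519, and no label states a pairing.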

Additional observations from a re-analysis of the deposited data

How the results depend on the processing

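Of 20 alternative settings, 16 were planned and 4, which join the replicate block to another choice, were chosen after seeing the data. The planned fit with no filter could not be made with a mean-variance trend, because most variances were 0. Limma called 0 probes with floors of 8 and 32, medians equalized, deposited values, the floor set after quantile normalization, only probes that exceed the floor on every array, no trend, robust eBayes, 1 probe per gene and any array left out. With log2(signal + 16) it called 5 (3 higher, 2 lower). The replicate block called 34 (23 higher, 11 lower), 70 on the deposited values, 42 at floor 8, 39 at floor 32, 88 with log2(signal + 16) and 17 without trend. Among member probes it called 1, Gpr83, on the deposited values (adjusted p = 0.0327 by limma) and 1, again Gpr83, with log2(signal + 16) (0.0249), and 0 under the other settings. The cause was not tested. Gpr83 stayed between −1.64 and −0.88 over the 20 settings, its lowest and highest values being those without dKO 1 and without dKO 2. The Izumo1r probe of highest mean stayed between −1.13 and −0.81.

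With an array left out, its group's lone array is assumed to vary like the other group. The median over core genes then ran from −0.28 to 0.17, and Foxp3 from −0.025 to 0.17 (ILMN_2635132), −0.079 to 0.21 (ILMN_2917180), −0.38 to 0.44 (ILMN_1251126) and −0.66 to 0.00 (ILMN_1225330, at 0.0034 without WT 1). Il2ra ran from −0.30 to 0.45 (ILMN_1233474) and −0.93 to −0.11 (ILMN_1234973), Ctla4 from −0.16 to 0.45, Ikzf2 from −0.071 to 0.62, Nrp1 from −0.14 to 0.11 (ILMN_1237197) and −0.52 to 0.87 (ILMN_1247094), Capg from −0.28 to 0.62 and −0.54 to 0.77, and Swap70 from −0.40 to 0.28 (ILMN_2903364), −0.46 to 0.42 (ILMN_2765524) and −0.23 to 0.51 (ILMN_2727273). Of 389 member values under alternatives, 21 had another sign, all with an array left out.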
